A study of Mus musculus with 6 samples.

Results

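Il5, Il13 and Il24 encode 3 cytokines associated with T helper 2 (Th2) cells, and they were followed here in mouse CD4-positive T cells cultured with or without the ligands B7-2 and BTNL2. The members were all probe sets annotated to these genes, which gave 1 probe set per gene: 1450550_PM_at for Il5, 1420802_PM_at for Il13 and 1426181_PM_a_at for Il24. They are 3 of the 17097 genes measured under a probe set with a single gene symbol. The genes were picked because earlier results on these arrays showed them lower in the BTNL2 wells than in the B7-2 wells, so their own levels and changes are given as a description and carry no test.

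Transcript levels were read from 6 one-colour arrays, 1 per culture, with 2 cultures in each group. The cells were CD4+ T cells of female C57BL/6 mice depleted of CD25+ cells, a step that takes away regulatory T cells. One label names spleen as their source and another names spleen and lymph nodes. In the anti-CD3 wells the plate carried an antibody to CD3 (clone 2C11, 2 µg/ml), which triggers the T cell receptor, and control IgG. The B7-2 wells carried anti-CD3, IgG and the Fc fusion protein of B7-2 (3 µg/ml), the ligand of CD28 and CTLA-4. In the BTNL2 wells the Fc fusion protein of BTNL2 (11 µg/ml), a butyrophilin-type molecule related to B7 ligands, took the place of the IgG beside anti-CD3 and B7-2. All cultures, those of the anti-CD3 group included, also contained human TGF-beta (0.36 ng/ml) and mouse IL-2 (10 ng/ml) and lasted 4 days. The study asked how BTNL2 changes the response to B7-2 costimulation. Nothing in the labels says that duplicates came from separate animals, so the p-values rest on a spread that may be technical.

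IL-5 drives the growth, maturation and survival of eosinophils through a receptor made of its own alpha chain and the beta chain shared with IL-3 and GM-CSF. IL-13 acts on epithelium, smooth muscle and macrophages through IL-4 receptor alpha paired with IL-13 receptor alpha 1, and causes mucus production in airway and gut. IL-24 belongs to the IL-20 branch of the IL-10 family and signals to epithelial and skin cells through IL-20 receptors; in the mouse it was described as a secreted product of Th2 cells induced by IL-4. In T cells, Il4, Il13 and Il5 form a cluster whose transcription depends on the factor GATA3 and on NFAT, which is activated through the T cell receptor.

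The promoters of Il5 and Il13 are shown because both genes were highest in the same wells and because GATA3 and NFAT are known to act there. Both sequences are from RefSeq (GRCm38.p6), cover 250 bases before to 50 bases after the start of the gene, and are written 5′ to 3′ on the strand of the gene. Capitals mark the GATA word (GATA preceded by A or T and followed by A or G) and the NFAT core word GGAAA, each searched on both strands. No entry for Il24 was matched, so 2 of the 3 genes have a sequence.
Il5 (chr11:53720544-53720843, + strand): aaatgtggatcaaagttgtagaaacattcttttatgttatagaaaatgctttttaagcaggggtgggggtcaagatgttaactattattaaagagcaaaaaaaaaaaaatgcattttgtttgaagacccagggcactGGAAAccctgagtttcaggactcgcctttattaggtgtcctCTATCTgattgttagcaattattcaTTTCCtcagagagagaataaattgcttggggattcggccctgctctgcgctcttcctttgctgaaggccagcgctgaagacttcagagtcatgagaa
Il13 (chr11:53634653-53634952, - strand): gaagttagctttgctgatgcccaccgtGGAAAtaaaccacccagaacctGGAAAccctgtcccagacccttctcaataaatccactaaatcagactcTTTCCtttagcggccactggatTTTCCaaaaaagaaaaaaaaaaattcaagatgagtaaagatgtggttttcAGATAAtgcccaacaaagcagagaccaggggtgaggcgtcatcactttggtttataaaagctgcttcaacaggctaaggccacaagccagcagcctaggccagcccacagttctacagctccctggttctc

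Each promoter held 1 GATA word, beginning 72 bases before the start of Il5 and 81 bases before the start of Il13. Of 32851 promoter windows of the same length, 29.8% held at least 1 such word. The NFAT core word occurred at 2 places in the Il5 window, 113 and 47 bases before the start, and at 4 places in the Il13 window, 223, 201, 153 and 131 bases before it. At least 1 match of this short word was present in 61.3% of all windows, and no GATA word overlapped an NFAT core in either gene. The Il13 window held 2 overlapping matches of TATAAA, 31 and 29 bases before the start, against 13.6% of windows with any match, and the Il5 window held none. The AP-1 words TGAGTCA and TGACTCA (in 5.2% of windows), the STAT6 word (TTC and GAA with 4 bases between them, 6.95%), the STAT5 word (the same with 3 bases between, 8.3%) and the T-box word GGTGTGA (3.98%) were not among the letters of either window.

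Il5, the eosinophil growth factor gene, was low in the anti-CD3 and BTNL2 wells and high in the B7-2 wells. Its intensity, on the linear scale of the deposited values, was 28.9 and 33.7 on the anti-CD3 arrays, 472 and 456 on the B7-2 arrays and 21.9 and 37.3 on the BTNL2 arrays. Both B7-2 arrays lay far above the other 4, and the anti-CD3 and BTNL2 arrays overlapped. The means were 31.3 ± 3.38, 464 ± 11.2 and 29.6 ± 10.9 (SD, n = 2). Il5 was 14.9-fold higher with B7-2 (log2 change 3.89 ± 0.23, SE) and 16.2-fold lower when BTNL2 was added (log2 change -4.02 ± 0.23). In the BTNL2 wells it stood at 6.38% of its B7-2 mean, and its difference from anti-CD3 alone was -0.13 ± 0.23 on the log2 scale. On all 6 arrays it read above the highest of 23 nonspecific control probe sets, which lay between 5.02 and 5.99. The medians of the arrays were 18.4 to 18.8, so its low levels were not far above those of a typical probe set. With 16 units added to all values before the log, its log2 changes were 3.34 and -3.42.

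Il13, the gene of the mucus-inducing cytokine, was intermediate in the BTNL2 wells. It read 379.5 and 377 on the anti-CD3 arrays, 1761 and 1814 on the B7-2 arrays and 645 and 705 on the BTNL2 arrays. No array of one group overlapped those of another, and the order was B7-2, BTNL2, anti-CD3 from high to low. The means were 378 ± 1.6, 1787 ± 37.7 and 675 ± 42.4 (SD, n = 2). Il13 was 4.72-fold higher with B7-2 (log2 change 2.24 ± 0.09), then 2.65-fold lower with BTNL2 (log2 change -1.41 ± 0.09). It kept 37.8% of its B7-2 mean and stayed 1.78-fold above anti-CD3 alone (log2 change 0.83 ± 0.09).

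Il24, the IL-20 family member, ended lower with BTNL2 than it had been without any ligand. It read 1399.7 and 1476 on the anti-CD3 arrays, 3730.4 and 3674 on the B7-2 arrays and 629.8 and 921 on the BTNL2 arrays. The groups did not overlap, and from high to low the order was B7-2, anti-CD3, BTNL2. The means were 1438 ± 53.9, 3702 ± 39.7 and 775 ± 206 (SD, n = 2), so the BTNL2 duplicates were the most spread of any group for this gene. Il24 was 2.58-fold higher with B7-2 (log2 change 1.37 ± 0.17) and 4.86-fold lower with BTNL2 (log2 change -2.28 ± 0.17). It stood at 20.9% of its B7-2 mean and 1.89-fold below anti-CD3 alone (log2 change -0.92 ± 0.17).

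**Figure D1:**
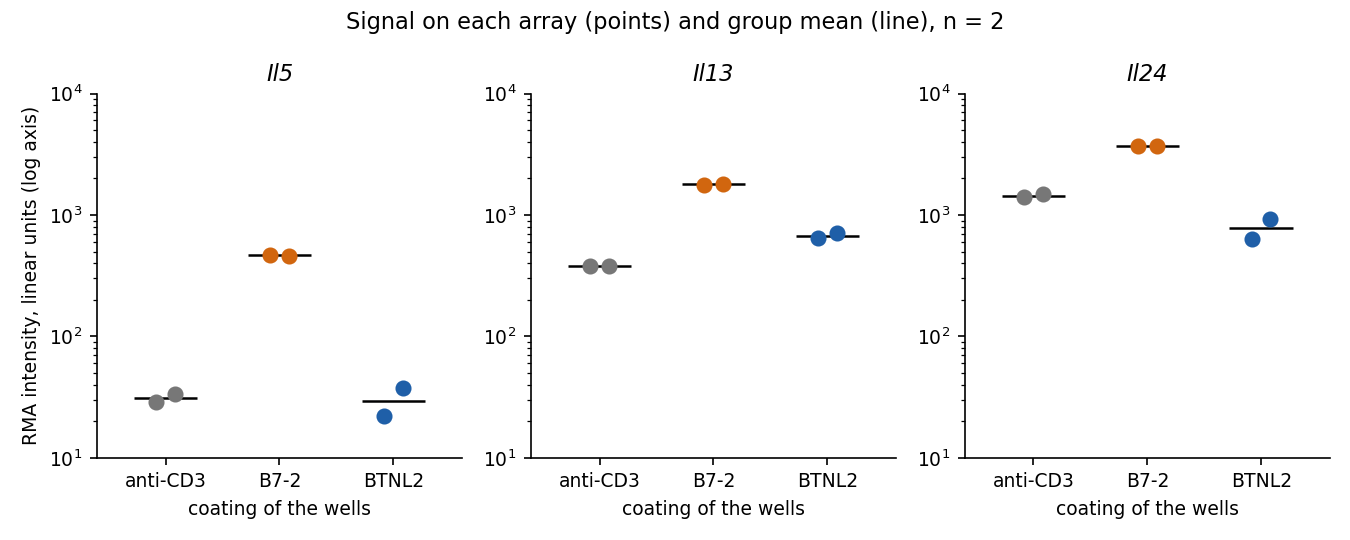
RMA intensity (linear units on a log axis) of Il5, Il13 and Il24 on each array, by coating of the wells. Points are single arrays and lines are group means (n = 2); each gene is highest in the B7-2 wells, and the BTNL2 wells lie level with the anti-CD3 wells for Il5, above them for Il13 and below them for Il24.

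All 3 genes were thus highest in the B7-2 wells, and they differed in where the BTNL2 wells fell. The rise with B7-2 and the fall with BTNL2 share the 2 B7-2 arrays and are not independent of each other. For 3 of the 3 genes the B7-2 arrays lay above the anti-CD3 arrays without overlap, as they did for 29.3% of all genes, and the BTNL2 arrays lay below the B7-2 arrays, as for 31% of all genes (27.9% lay above). Against anti-CD3 alone the BTNL2 arrays were higher without overlap for Il13 (30.8% of all genes), lower without overlap for Il24 (32.2%) and overlapping for Il5. Among the 17097 genes, 3 rose with B7-2 as much as Il5, itself counted, 17 as much as Il13 and 75 as much as Il24. With BTNL2, 10 genes fell as much as Il5, 71 as much as Il24 and 253 as much as Il13. These ranks describe the values by which the genes were picked and support nothing. In such bulk cultures, fewer cells making a cytokine and less RNA per cell cannot be told apart.

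Of the other type 2 cytokine genes, Il4, Il9, Il3 and Csf2 rose with B7-2, and with BTNL2 Il4 fell while the other 3 rose further. Genes are called here at a limma adjusted p under 0.05 (Benjamini-Hochberg over all 17097 genes), which 24.5% of genes reached in the comparison of B7-2 with anti-CD3 (11.2% higher, 13.3% lower) and 20.4% in the comparison of BTNL2 with B7-2 (9.52% higher, 10.8% lower). An unadjusted p under 0.05 was reached by 35.3%, 32.4% and 38.8% of genes in the comparisons of B7-2 with anti-CD3, BTNL2 with B7-2 and BTNL2 with anti-CD3. Of the 6 genes of this list that were measured, 4 were higher with B7-2 and 0 lower, with a median log2 change of 1.27 against -0.0048 for all genes. With BTNL2, 3 of the 6 rose and 1 fell, with a median of 0.69 against -0.0114. Against anti-CD3 alone, where 30.4% of all genes were called (14.2% higher, 16.2% lower), 3 of the 6 were higher and 0 lower with BTNL2, with a median of 1.497 against -0.0046.

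Il4 encodes the cytokine that induces Th2 differentiation and is the closest neighbour of Il13 in the genome. Like the 3 genes it was highest in the B7-2 wells, with smaller changes with B7-2 and with BTNL2. It read 173 and 157 on the anti-CD3 arrays, 291 and 404 on the B7-2 arrays and 191 and 176 on the BTNL2 arrays. It rose with B7-2 (log2 change 1.06 ± 0.16, adjusted p = 0.00355) and fell with BTNL2 (log2 change -0.90 ± 0.16, adjusted p = 0.00751), while its difference between the BTNL2 and anti-CD3 wells did not pass (log2 change 0.16 ± 0.16, adjusted p = 0.529). The B7-2 arrays were its most spread pair, yet both stood above the other 4 arrays.

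Il9, Il3 and Csf2 went the other way in the BTNL2 wells. Il9, the mast cell and T cell growth factor gene often grouped with Il5 and Il13, read 20.4 and 19.3 with anti-CD3, 319 and 307 with B7-2 and 2542 and 1557 with BTNL2, and rose in both steps (log2 change 3.98 ± 0.21 and 2.67 ± 0.21, adjusted p = 0.000166 and 0.000202). Csf2, which encodes GM-CSF, whose receptor shares its beta chain with that of IL-5, rose by 2.28 ± 0.13 and 1.07 ± 0.13 on the log2 scale (adjusted p = 0.000167 and 0.0013). Il3, the third ligand of that beta chain, rose by 1.48 ± 0.18 and 1.15 ± 0.18 (adjusted p = 0.00168 and 0.00475), from low signals of 5.68 and 6.89 on the anti-CD3 arrays to 45.4 and 33.4 on the BTNL2 arrays. With 16 units added before the log, the first change of Il3 was 0.59. The remaining cytokine genes of the list, Il31 and Il6, did not pass the test with B7-2 (adjusted p = 0.896 and 0.0771) or with BTNL2 (adjusted p = 0.233 and 0.424).

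Il10, the suppressive cytokine gene of the family to which Il24 belongs, read 94.2 and 79.2 on the anti-CD3 arrays, 617 and 654 on the B7-2 arrays and 210 and 289 on the BTNL2 arrays. It rose with B7-2 (log2 change 2.88 ± 0.16, adjusted p = 0.000167), fell with BTNL2 (log2 change -1.37 ± 0.16, adjusted p = 0.00135) and stayed above anti-CD3 alone (log2 change 1.51 ± 0.16, adjusted p = 0.000577). That order of groups is the one seen for Il13. Il20, the nearest relative of Il24 measured, read 4.26 to 5.72 on the 6 arrays, above the highest nonspecific control on 2 of them, and did not pass in any comparison (adjusted p = 0.632, 0.428 and 0.763). The IL-10 and IL-20 family list thus had 2 measured genes, with 1 higher and 0 lower with B7-2, 0 higher and 1 lower with BTNL2, and 1 higher and 0 lower between the BTNL2 and anti-CD3 wells, with medians of 1.39, -0.60 and 0.79 against -0.0048, -0.0114 and -0.0046 for all genes.

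On a list of receptor chain genes for the 3 cytokines, Il4ra passed the test, while calls of 3 others depended on the setting. Of 8 receptor chain genes measured, 0 were higher and 1 lower with B7-2 (median log2 change 0.03, against -0.0048 for all genes), 0 higher and 0 lower with BTNL2 (median 0.03 against -0.0114), and 0 higher and 1 lower between the BTNL2 and anti-CD3 wells (median -0.02 against -0.0046). Il4ra, the chain shared by the IL-4 and IL-13 receptors, fell from 419.6 and 478 with anti-CD3 to 237 and 211 with B7-2 (log2 change -1.003 ± 0.11, adjusted p = 0.00124). It stayed there with BTNL2 at 217 and 239.6 (log2 change 0.03 ± 0.11, adjusted p = 0.902). With BTNL2, where limma called none of the 8, 1 of them had an unadjusted p under 0.05. This was Il13ra1, with a log2 change of -0.48 ± 0.16 (adjusted p = 0.076), and it passed when the variance prior followed intensity (adjusted p = 0.0497) and without the second B7-2 array (adjusted p = 0.0159). Il5ra, the alpha chain that gives eosinophils their response to IL-5, read 10.3 to 13.4 on the 6 arrays. Csf2rb is the gene of the shared beta chain. Csf2rb2, counted in the list, encodes a beta chain of the IL-3 receptor and not of the IL-5 receptor. The 2 genes are near-identical copies, so their signals may be mixed. Between the BTNL2 and anti-CD3 wells the 3 probe sets of Csf2rb ranged from -0.11 to 1.02 on the log2 scale, the brightest giving 0.25, and their mean of 0.39 was called higher (adjusted p = 0.0217), as was the brightest with dim genes left out (adjusted p = 0.0459). In the same comparison the mean of the probe sets of Il13ra1 passed as lower (-0.31, adjusted p = 0.0374), and Csf2rb2 was called higher without the second BTNL2 array (log2 change 0.62, adjusted p = 0.0444).

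The genes of GATA3 and STAT6, the best-known activators of the type 2 cytokine genes, did not pass the test with B7-2 or with BTNL2. Gata3 read 894 and 913 with anti-CD3, 887 and 905 with B7-2 and 695 and 789 with BTNL2. Its log2 change was -0.01 ± 0.10 with B7-2 (adjusted p = 0.95) and -0.27 ± 0.10 with BTNL2 (adjusted p = 0.093), and a variance prior that followed intensity made the latter pass (adjusted p = 0.0115), as did the offset of 16 units (adjusted p = 0.0344). Stat6 read 143 to 185 on the 6 arrays, with log2 changes of -0.12 ± 0.09 (adjusted p = 0.405) and -0.19 ± 0.09 (adjusted p = 0.172). The BTNL2 arrays were the lowest for both genes. Against anti-CD3 alone Gata3 stood at -0.29 ± 0.10 in the BTNL2 wells and did not pass (adjusted p = 0.0632), but it did with the intensity prior (0.006), with dim genes left out (0.0381), with the offset (0.0216) and without the second BTNL2 array (0.0465). Stat6 passed when BTNL2 wells were set against anti-CD3 alone (log2 change -0.31 ± 0.09, adjusted p = 0.0321). That call was lost with only the 4 arrays compared (adjusted p = 0.0542) and without any 1 of the 6 arrays (adjusted p = 0.0542 to 0.156).

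Among 20 genes of factors that promote type 2 cytokines, 4 rose and 4 fell with B7-2 (median log2 change -0.09), 3 rose and 8 fell with BTNL2 (median -0.31), and 0 rose and 9 fell between anti-CD3 and BTNL2 wells (median -0.30). The medians over all genes were -0.0048, -0.0114 and -0.0046. Genes named in this and later lists to complete a count were chosen after their values were seen. Those that rose with B7-2 were Pparg (log2 change 1.91), Prdm1 (1.28), Rora (0.78) and Junb (0.51). The probe sets of Rora ranged from -0.01 to 1.67 with B7-2. With BTNL2 they ranged from -1.22 to 0.19, and the brightest gave -0.34 and did not pass (adjusted p = 0.214). Pparg, a nuclear receptor gene required for full cytokine output of Th2 cells, read 51 and 43.7 with anti-CD3, 170 and 185 with B7-2 and 28.3 and 43.5 with BTNL2. It rose with B7-2 (adjusted p = 0.00091) and fell with BTNL2 (log2 change -2.34 ± 0.20, adjusted p = 0.00029). Prdm1, which encodes the repressor Blimp-1, read 79.6 and 87.4, then 191 and 216, then 90.6 and 88.4, and fell with BTNL2 by 1.18 ± 0.10 on the log2 scale (adjusted p = 0.000324). For both genes the B7-2 arrays stood above the other 4.

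Other factors of that list fell with B7-2. Maf, an activator of Il4, fell from 675 and 691 with anti-CD3 to 223 and 208 with B7-2 (log2 change -1.66 ± 0.09, adjusted p = 0.000166) and on to 124 and 131 with BTNL2 (log2 change -0.76 ± 0.09, adjusted p = 0.00122). Stat5b, Ets1 and Stat5a, genes of activators downstream of IL-2 and of the T cell receptor, also fell with B7-2, by 0.54, 0.41 and 0.32 on the log2 scale. Those that rose with BTNL2 were Nfatc1 (log2 change 0.37), Ets1 (0.36) and Notch1 (0.35), which encode activators of Il4 and other cytokine genes. A second, dimmer probe set of Notch1 gave 0.009. The probe sets of Ets1 ranged from 0.07 to 0.55 and those of Nfatc1 from 0.27 to 0.61. Nfil3, a basic leucine zipper factor gene, fell with BTNL2 (log2 change -1.24 ± 0.16, adjusted p = 0.0018) and was below anti-CD3 alone in those wells (log2 change -1.56 ± 0.16, adjusted p = 0.000441). Beside Pparg, Prdm1, Maf and Nfil3, the genes of this list that fell with BTNL2 were Batf (log2 change -0.79), Junb (-0.78), Rbpj (-0.52) and Irf4 (-0.34). A second, dimmer probe set of Irf4 gave -1.86.

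Genes of factors that restrain type 2 cytokines went both ways. Of 12 measured, 1 rose and 2 fell with B7-2 (median log2 change -0.09), 5 rose and 2 fell with BTNL2 (median 0.27), and 4 stood above and 3 below their anti-CD3 level with BTNL2 (median 0.30), beside the same medians over all genes. With B7-2 the riser was Zbtb32 and the genes that fell were Bcl6 and Stat4. Eomes, a T-box factor gene of cytotoxic lymphocytes, read 16.3 to 21.1 on the anti-CD3 and B7-2 arrays and 1337 and 991 on the BTNL2 arrays (log2 change 6.00 ± 0.18, adjusted p = 5.55e-06). The others that rose with BTNL2 were Stat4 (log2 change 1.23), Bcl6 (0.92), Zfpm1 (0.79) and Runx3 (0.65). Bcl6 has a second, dim probe set, and its fall with B7-2 was -2.45 with the brighter one and -1.30 with their mean, and its rise with BTNL2 0.92 and 0.42. The probe sets of Runx1, which was not called, ranged with BTNL2 from -0.13 for the brightest to 0.77 for a dimmer one. Tbx21, the gene of the Th1 factor T-bet, did not pass with B7-2 (log2 change -0.21 ± 0.16, adjusted p = 0.42) or with BTNL2 (log2 change -0.30 ± 0.16, adjusted p = 0.248). Against anti-CD3 alone Eomes, Stat4, Runx3 and Zfpm1 were higher in the BTNL2 wells and Bcl6, Hlx and Tbx21 lower. The call of Stat4 (log2 change 0.492 ± 0.10, adjusted p = 0.00913) was lost without the first anti-CD3 array, with a change of 0.485. The call of Tbx21 (log2 change -0.51 ± 0.16, adjusted p = 0.0495) was lost with only the 4 arrays compared (0.0649), a robust prior (0.0523) or median centring (0.0564). Without the second anti-CD3 array its change was -0.33 (adjusted p = 0.246), without the first BTNL2 array -0.34 (adjusted p = 0.23), and the call was also lost without either B7-2 array (adjusted p = 0.0649).

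Zbtb32, which encodes a zinc finger protein known as repressor of GATA, was also highest in the B7-2 wells. It read 128 and 123 with anti-CD3, 419.9 and 408 with B7-2 and 131 and 149.7 with BTNL2. It rose with B7-2 (log2 change 1.72 ± 0.10, adjusted p = 0.000172), fell with BTNL2 (log2 change -1.57 ± 0.10, adjusted p = 8.21e-05) and did not pass between the outer groups (log2 change 0.15 ± 0.10, adjusted p = 0.311). Hlx, a homeobox gene active in Th1 cells, fell with BTNL2 as well (log2 change -1.29).

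**Figure D2:**
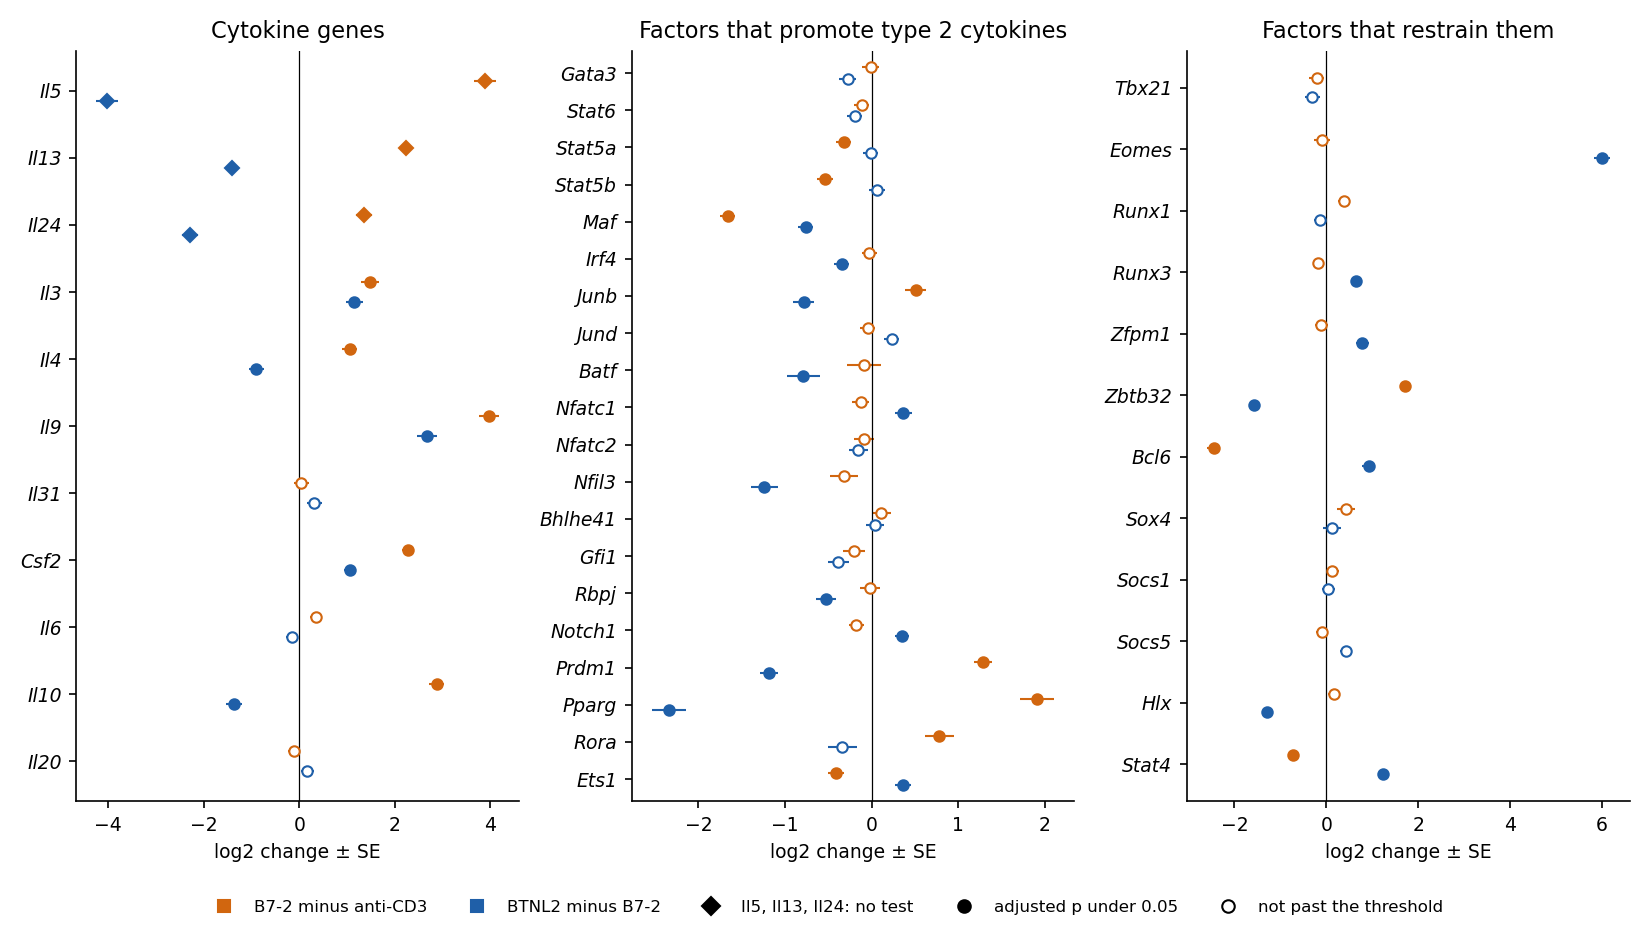
Log2 change ± SE (limma, n = 2 arrays per group) of cytokine genes and of genes of factors that promote or restrain type 2 cytokines, for B7-2 minus anti-CD3 (orange) and BTNL2 minus B7-2 (blue). Diamonds are Il5, Il13 and Il24, which carry no test; filled circles passed at an adjusted p under 0.05. Il4, Il10, Pparg, Prdm1 and Zbtb32 lie right of 0 in orange and left of 0 in blue, whereas Il9, Il3 and Csf2 lie right of 0 in both and Gata3 and Stat6 have open circles.

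A list of surface receptors described on Th2 cells also holds Il18r1, better known from Th1 cells, which supplies 1 of its 3 rises with BTNL2 and 1 of its 2 genes above anti-CD3 alone. Of 9 measured, 0 rose and 2 fell with B7-2 (median log2 change -0.20), 3 rose and 2 fell with BTNL2 (median -0.02), and 2 stood above and 3 below their anti-CD3 level with BTNL2 (median -0.08); the medians over all genes are those given for the promoting factors. Those that fell with B7-2 were Crlf2, a chain of the TSLP receptor (log2 change -0.53 ± 0.08, adjusted p = 0.00465), and the chemokine receptor gene Ccr4 (log2 change -0.57 ± 0.13, adjusted p = 0.0187). Ccr4 fell further with BTNL2 (log2 change -0.49 ± 0.13, adjusted p = 0.0385). Its first call was lost without any 1 of the anti-CD3 or B7-2 arrays (adjusted p = 0.0562 to 0.102), and its second without any 1 array other than the second BTNL2 array (adjusted p = 0.0603 to 0.15), with a change of -0.31 without the first BTNL2 array. With BTNL2, Il18r1, an IL-18 receptor gene, rose by 2.49 ± 0.24 on the log2 scale (adjusted p = 0.000468) and Il17rb, the receptor gene for IL-25, by 1.62 ± 0.26 (adjusted p = 0.00493), or by 0.79 with 16 units added. Icos, the costimulatory receptor gene, rose with BTNL2 (log2 change 0.52), and Cysltr1, the leukotriene receptor gene, fell (log2 change -1.37 ± 0.18, adjusted p = 0.0023, or -0.81 with 16 units added). With B7-2 Icos was not called (log2 change -0.25 ± 0.09, adjusted p = 0.087). It was called lower with the intensity prior (0.00138), dim genes left out (0.0495) and the offset (0.0211), while its dimmer probe sets gave 0.02 and -0.02. Il17rb (log2 change -0.69, adjusted p = 0.102) was called lower with B7-2 with the intensity prior (0.0313). Against anti-CD3 alone Il18r1 and Il17rb were higher in the BTNL2 wells and Crlf2, Ccr4 and Cysltr1 lower, with the call of Il17rb (adjusted p = 0.0315) lost without the second anti-CD3 array (adjusted p = 0.169) or the second BTNL2 array (adjusted p = 0.163). Icos did not pass there (log2 change 0.27 ± 0.09, adjusted p = 0.0639), but it did with the mean of its probe sets (log2 change 0.58, adjusted p = 0.00275), the intensity prior (0.000668), dim genes left out (0.0354) and the offset (0.014).

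Il13 and Il5 lie close together on chromosome 11, in the order Kif3a, Il4, Il13, Rad50, Il5 and Irf1 by the GRCm38.p6 gene table. Of 11 neighbouring genes measured, 3 rose and 0 fell with B7-2 (Septin8, Il4 and Rad50), 2 rose and 4 fell with BTNL2, and 2 were higher and 2 lower between the BTNL2 and anti-CD3 wells. Rad50, a DNA repair gene that lies between Il13 and Il5 and holds the locus control region of this cluster, read 616 and 648 with anti-CD3, 1107 and 1078 with B7-2 and 483 and 587 with BTNL2. It rose with B7-2 (log2 change 0.79 ± 0.11, adjusted p = 0.00304) and fell with BTNL2 (log2 change -1.04 ± 0.11, adjusted p = 0.000893), with a difference of -0.25 ± 0.11 from anti-CD3 alone that did not pass (adjusted p = 0.159) but did with an intensity trend in the prior (adjusted p = 0.0397). Septin8, a cytoskeletal gene beyond Kif3a, also rose with B7-2 (log2 change 0.75 ± 0.13, adjusted p = 0.00618) and fell with BTNL2 (log2 change -1.80 ± 0.13, adjusted p = 0.000147).

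The neighbours did not all follow the cytokine genes. Kif3a, a kinesin motor gene of cilia, read 674 and 680.5 with anti-CD3, 540.5 and 556 with B7-2 and 117 and 178 with BTNL2. It fell with BTNL2 (log2 change -1.92 ± 0.18, adjusted p = 0.000447) and did not pass with B7-2 (log2 change -0.31 ± 0.18, adjusted p = 0.287). Its 4 probe sets differed with B7-2, from -0.35 to 0.55, with a mean of 0.01 (adjusted p = 0.975), while the brightest alone was called lower with only the 4 arrays compared (adjusted p = 0.0492). With BTNL2 the 4 ranged from -1.92 to -1.34. Irf1, the interferon regulatory factor gene on the other side of Il5, rose with BTNL2 (log2 change 0.61 ± 0.10, adjusted p = 0.00479), and so did Pdlim4 (log2 change 3.97 ± 0.26, adjusted p = 9.71e-05), which read 15.4 to 20.5 in the other groups and 356 and 192 with BTNL2. The organic cation and carnitine transporter genes Slc22a5, Slc22a21 and Slc22a4 and the genes Shroom1 and Sowaha did not pass in any comparison. Yet Slc22a21 was called lower with BTNL2 when dim genes were left out (adjusted p = 0.0459), and Sowaha without the first B7-2 array (log2 change -0.49). The members of this transporter family are similar in sequence, so their signals may be mixed.

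Il24 lies on chromosome 1 in a row of IL-10 family genes, next to Il20, Il19 and Il10. Of 10 neighbouring genes, 8 were measured, of which 4 rose and 0 fell with B7-2 (Yod1, Il10, Mapkapk2 and Dyrk3), 0 rose and 3 fell with BTNL2 (Il10, Mapkapk2 and Dyrk3), and 3 stood above and 1 below their anti-CD3 level with BTNL2. Il10, Mapkapk2 and Dyrk3 follow each other on 1 side of Il24, beyond Il20. Dyrk3, a protein kinase gene, read 56.2 and 46.3, then 102 and 105, then 32.3 and 37.8 (log2 change 1.03 ± 0.13 and -1.57 ± 0.13, adjusted p = 0.00173 and 0.000246), and like Il24 it was lower with BTNL2 than with anti-CD3 alone (log2 change -0.55 ± 0.13, adjusted p = 0.016). That last call was lost without the first anti-CD3 array (adjusted p = 0.0922) or the first BTNL2 array (adjusted p = 0.0874). Mapkapk2, which encodes a kinase that stabilises cytokine mRNA, rose by 0.53 ± 0.12 and then fell by 0.81 ± 0.12 (adjusted p = 0.0211 and 0.00405). Its rise was not called without the first anti-CD3 array (adjusted p = 0.0926), without the second (adjusted p = 0.0887) or without the first B7-2 array (adjusted p = 0.107). On the other side of Il24, Fcamr and Pigr, genes of immunoglobulin receptors, read at most 9.96 on any array and did not pass.

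Yod1 and Pfkfb2, farther along that side, encode a deubiquitinase and a regulator of glycolysis. Yod1 rose with B7-2 (log2 change 0.46 ± 0.12, adjusted p = 0.0304) and stayed high with BTNL2, with a difference of 0.70 ± 0.12 from anti-CD3 alone (adjusted p = 0.00403). With the mean of its probe sets neither passed (adjusted p = 0.149 and 0.0564), and the first was also lost without the second anti-CD3 array (0.152), the first B7-2 array (0.0585) or the second (0.142). Pfkfb2 was higher with BTNL2 than with anti-CD3 alone (log2 change 0.57 ± 0.18, adjusted p = 0.0493), a call lost with the mean of its probe sets (log2 change 0.15, adjusted p = 0.47), with a robust prior (0.0521), with the offset (0.0555) and with only the 4 arrays compared (0.0664). It was also lost without any 1 array other than the first anti-CD3 array (adjusted p = 0.0664 to 0.221), with a change of 0.31 without the second anti-CD3 array.

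**Figure D3:**
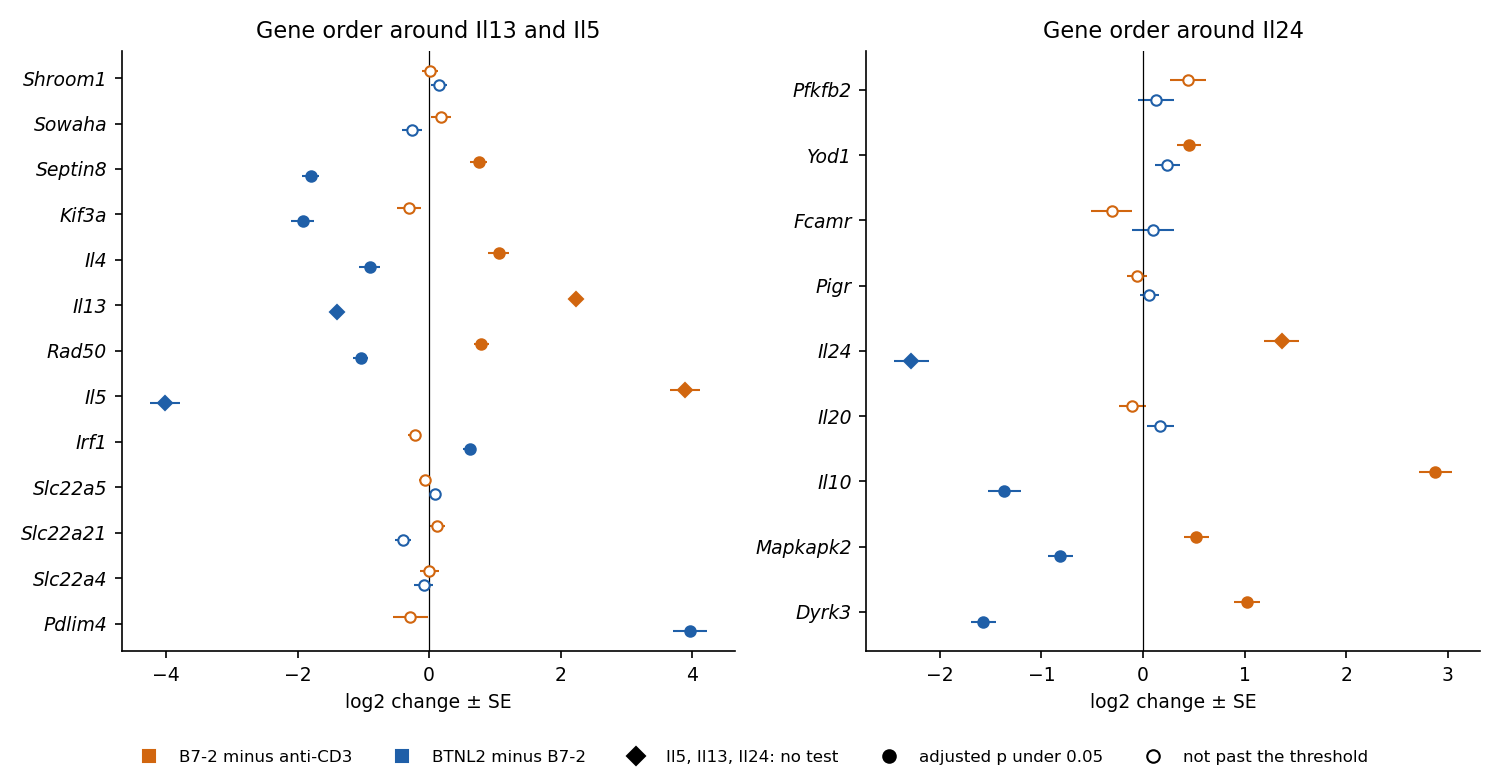
Log2 change ± SE (limma, n = 2 arrays per group) of Il13, Il5 and Il24 (diamonds, no test) and of measured neighbouring protein-coding genes (circles, filled at an adjusted p under 0.05), listed in gene order from top to bottom and not to scale. Il4 and Rad50 beside Il13 and Il5, and Il10, Mapkapk2 and Dyrk3 beside Il24, lie right of 0 for B7-2 minus anti-CD3 (orange) and left of 0 for BTNL2 minus B7-2 (blue).

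For each of the 3 genes the 5 genes with the most similar profile over the 6 arrays were found by the root mean square (RMS) difference of log2 values, each gene centred on its own mean. Nearest to Il5 were Nts, the neurotensin gene (RMS difference 0.45), Dclk1 (0.45), Pde1a (0.47), Ermn (0.48) and Pdpn, the podoplanin gene (0.55). Nts rose and fell back to its starting level as Il5 did, with means of 23.2, 189 and 23.4 in the anti-CD3, B7-2 and BTNL2 wells. The 8 probe sets of Dclk1 differ in size, with log2 changes from 0.28 to 2.93 with B7-2. A second, dim probe set of Pde1a, with a mean of 6.18, gave -0.125 with B7-2 and -0.28 with BTNL2.

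Nearest to Il13 were Perp, a target gene of p53 (RMS difference 0.14), Phlda1 (0.20), Penk, the gene of the enkephalin precursor (0.21), Sytl3 (0.26) and Olr1, a scavenger receptor gene (0.27). Penk had means of 563, 2296 and 1228 and Perp of 178, 685 and 272 in the anti-CD3, B7-2 and BTNL2 wells, so both kept part of the rise with BTNL2. Nearest to Il24 were Prxl2a (RMS difference 0.10), Stfa3 (0.16), Plk2, a polo-like kinase gene (0.16), Aldh1l2 (0.18) and Myh10, a non-muscle myosin gene (0.19). Prxl2a had means of 259, 734 and 156. Stfa3 belongs to a family of near-identical stefin genes whose signals may be mixed. Between the 3 genes themselves the RMS differences were 1.098 for Il5 and Il13, 1.06 for Il5 and Il24 and 0.73 for Il13 and Il24, so none was among the nearest of another by this measure. The RMS difference also counts the size of a change. Pearson r over the 6 arrays was 0.92, 0.93 and 0.70 in the same order.

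**Figure D4:**
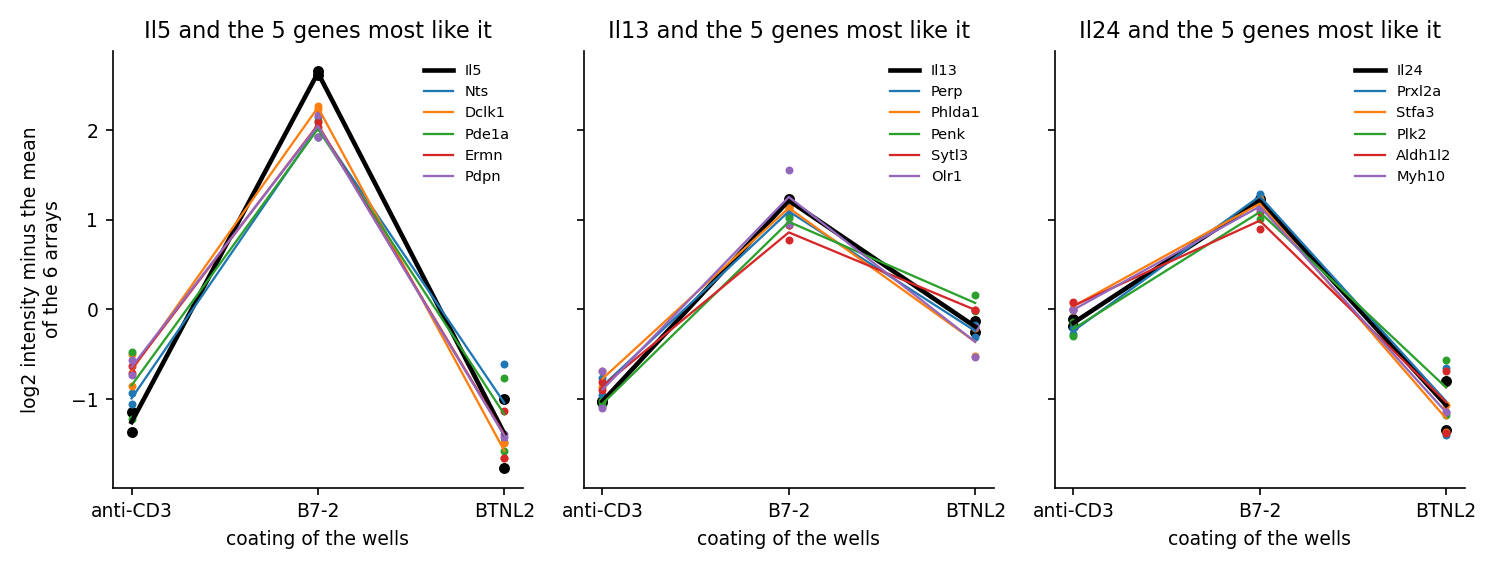
Log2 intensity minus the mean of the 6 arrays for Il5, Il13 and Il24 (black) and the 5 genes most like each by RMS difference (colours), by coating of the wells. Lines join group means (n = 2) and points are single arrays; Il5 peaks about 4 log2 units above both outer groups, the group around Il13 ends above the anti-CD3 wells and the group around Il24 ends below them.

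Markers of the cell types that could be present were read beside these results. All 7 T cell genes read above the highest nonspecific control on all 6 arrays, and their intensities summed to 21401 to 21820 in the anti-CD3 wells, 17058 to 17280 in the B7-2 wells and 16108 to 16265 in the BTNL2 wells (3 of 7 lower with B7-2, 2 of 7 lower with BTNL2, 5 of 7 below their anti-CD3 level with BTNL2, 0 higher in each). Cd4 read 1103 to 1705 and did not pass with B7-2 (adjusted p = 0.0949) or BTNL2 (adjusted p = 0.0935). Both changes were called lower with an intensity trend in the prior and with the offset of 16 units (adjusted p = 0.0316 and 0.0318 with the offset). With the mean of its probe sets the change with BTNL2 passed (log2 change -0.41, adjusted p = 0.0258). In the BTNL2 wells Cd4 was below anti-CD3 alone (log2 change -0.53 ± 0.09, adjusted p = 0.00513). Among other cells that can make IL-5 and IL-13, the 7 mast cell and basophil genes summed to 92.7 to 115, 78.6 to 88.8 and 91.9 to 94.1 in the anti-CD3, B7-2 and BTNL2 wells (1 lower with B7-2, none called with BTNL2). The 5 eosinophil genes summed to 55.8 to 60.6, 64.9 to 67.1 and 72.6 to 99.5 (none called with B7-2 or BTNL2, 1 above its anti-CD3 level with BTNL2). The mast cell receptor gene Fcer1a exceeded the highest nonspecific control on 1 of 6 arrays, Cpa3 and Kit on 5, and Mcpt8, Ms4a2, Gata2 and Hdc on all 6. Of the eosinophil genes, Prg2 and Ccr3 exceeded it on 5 and 4 arrays, and Epx, Siglecf and Il5ra on all 6. Siglecf, the gene called above its anti-CD3 level (log2 change 1.22 ± 0.23, adjusted p = 0.00694), had means of 20.5, 29.4 and 49.2 in the anti-CD3, B7-2 and BTNL2 wells. Myeloid genes (6) summed to 58.6 to 66.2, with none called in any comparison.

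Of 6 genes of CD8 T cells and NK cells, Cd8a, Cd8b1, Klrd1 and Crtam fell with B7-2 and rose with BTNL2, while Ncr1 and Klrb1c did not pass in either step. The 6 summed to 598 to 643 with anti-CD3, 248 to 264 with B7-2 and 1532 to 1610 with BTNL2 (4 of 6 lower with B7-2, 4 of 6 higher with BTNL2, 3 of 6 above their anti-CD3 level with BTNL2), and Cd8a changed by -1.47 ± 0.10 and then by 3.08 ± 0.10 on the log2 scale (adjusted p = 0.000273 and 8.41e-06). In the BTNL2 wells Cd8a was also above anti-CD3 alone (log2 change 1.62 ± 0.10, adjusted p = 5.82e-05). Ncr1, the defining NK receptor gene, read 4.75 to 6.62 and exceeded the highest nonspecific control on 4 of 6 arrays, both BTNL2 arrays among them. The 5 B cell genes summed to 557 to 594, 289 to 307 and 598 to 760 in the same order (3 of 5 lower with B7-2, 4 of 5 higher with BTNL2, 1 higher and 1 lower between the BTNL2 and anti-CD3 wells). The part of these markers in the levels of Il5, Il13 and Il24 was not tested.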

How the data were processed

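Intensities were used as deposited: probe set values on a linear scale from 6 arrays, made with RMA per the submitters' processing notes, whose version is not given in the sources used here. RMA corrects background, normalizes arrays to each other and summarises probes, so a shift shared by most genes is removed. The labels' protocols state that the RNA (50 ng) went through NuGen Ovation amplification, which can alter relative signals. Precision is limited by having 2 arrays in a group.

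All values were log2 transformed. Of 45141 probe sets, 104 controls, 551 with several symbols and 15588 without a symbol here were left out. Symbols were updated by Entrez identifier for 28689 of 28898 probe sets, and the brightest probe set stood for a gene, with no filter. All 3 groups were fitted together with limma 3.58.1 in R 4.3.3 (lmFit, eBayes, 3 residual degrees of freedom, Benjamini-Hochberg adjustment over 17097 genes), without a replicate block. The fit was also run on simulated data with few changed genes and independent noise on each array, which cannot show whether the duplicates are technical.

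The 3 genes, the pathway lists and the marker lists were chosen with earlier results of these data known. Genes named are Il4, Il9, Il10, Gata3, Tbx21, Stat6, Rad50, Cd4 and Cd8a, the 3 with the smallest p per pathway list and comparison, the 5 protein-coding neighbours on each side, and the 5 most like each gene, without predicted genes and clones. Gene order and names come from the GRCm38.p6 gene table, and no coordinates are given for probe sets because the files name no build.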

Additional observations from a re-analysis of the deposited data

How the results depend on the processing

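The 9 log2 changes of Il5, Il13 and Il24 were recomputed under 9 other settings and without each array in turn. Most of these could not move a change: 6 of the 9 settings act only on p-values or on genes with several probe sets, and leaving out 1 of 2 arrays shifts a group mean by a fixed part of the duplicate difference. The settings that can move it were median centring (by up to 0.02), repeated quantile normalization (by up to 0.04) and an offset of 16 units before the log. The offset moved 3 changes by more than the spread between duplicates, to 3.34 and -3.42 for Il5 (B7-2 minus anti-CD3, BTNL2 minus B7-2) and 2.19 for Il13 (B7-2 minus anti-CD3). Without 1 array the changes with B7-2 ranged from 3.782 to 4.003 for Il5, 2.22 to 2.26 for Il13 and 1.33 to 1.40 for Il24, those with BTNL2 from -4.40 to -3.64, -1.47 to -1.34 and -2.56 to -2.01, and those between the BTNL2 and anti-CD3 wells from -0.51 to 0.26, 0.77 to 0.90 and -1.19 to -0.64. The count of called genes without 1 array was 2454 to 4128 (B7-2 minus anti-CD3), 2142 to 3015 (BTNL2 minus B7-2) and 3726 to 4870 (BTNL2 minus anti-CD3), against 4190, 3482 and 5197 with all; these fits have fewer arrays. Deviations of same-numbered arrays correlated at -0.06 to -0.00 over all genes. They gave no sign that replicate numbers pair the cultures, but cannot exclude it, since an effect shared by part of the genes could go unseen. With the replicate block 3765, 3160 and 4827 genes were called. Among named genes Il13ra1 and Slc22a21 were then called lower with BTNL2 than with B7-2 (adjusted p = 0.0476 and 0.0472), and Stat6 lost its call between the BTNL2 and anti-CD3 wells (adjusted p = 0.0562). By Pearson r in place of the RMS difference, 1, 0 and 1 of the 5 genes most like Il5, Il13 and Il24 were the same.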
